A study of Mus musculus with 35 samples.

Results

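The genes described here are 10 genes of the circadian clock, measured in motoneurons of SOD1G93A and WT mice. All but Arntl2, a paralog of the activator Arntl, are repressors or output genes. They were chosen by name, Cry1, Cry2, Per1, Per2, Per3, Nr1d1, Nr1d2, Dbp, Hlf and Arntl2, with earlier results of these data known, and each probe set that names exactly 1 gene, this gene being in the list, was taken. This gave 21 probe sets of 10 genes, out of 34958 probe sets of 18194 genes on the array. Motoneurons of the lumbar spinal cord were cut out of frozen sections by laser microdissection, 300 cells per mouse, and the RNA of each mouse was hybridized to 1 Affymetrix array. The values are log2 intensities after GCRMA normalization, and a difference of 1 on this scale is a doubling of signal. At week 11 there were 8 SOD1 mice and 6 WT mice, and the groups of week 15 were G-CSF-treated SOD1 mice (n = 7), vehicle-treated SOD1 mice (n = 7) and WT mice (n = 7). SOD1 mice were females of the strain B6.Cg-Tg(SOD1-G93A)1Gur/J, which holds the high-copy human SOD1 transgene with the G93A mutation under the human promoter, and WT mice, labelled C57BL/6J, were described as wild-type littermates. Granulocyte colony-stimulating factor (G-CSF) or its vehicle was given by implanted pump from week 11 until week 15, and whether WT mice carried pumps was not given in the sources used here. All mice were anesthetized with ketamine and xylazine and perfused before the spinal cord was taken. The hour of dissection was not given, so no value below can be placed on a day-night cycle.

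The circadian clock is a feedback loop of transcription that runs in nearly every cell. The activators Clock and Arntl (Bmal1) bind E-box sequences as a pair and switch on the Per and Cry genes, whose proteins come back to the nucleus and block the pair. The nuclear receptors Nr1d1 and Nr1d2 (Rev-erb alpha and beta) are switched on by the same pair and repress Arntl, competing with Ror receptors for short response elements. Dbp and Hlf are transcription factors that bind D-boxes and carry the rhythm to output genes, and Arntl2 (Bmal2) is a paralog of Arntl that can also pair with Clock. Light and glucocorticoids can induce Per1 quickly in many tissues. In the brain the clock of the suprachiasmatic nucleus sets the phase of the others, and levels of these mRNAs depend on the hour at which tissue is taken.

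E-boxes, D-boxes, Ror elements and cAMP response elements are among the sites through which clock genes are controlled. The windows from 250 bases before to 50 bases after the start site were searched on both strands for 4 motifs. These were CACGTG (E-box), TTATGTAA or TTACGTAA (D-box), TGACGTCA (cAMP response element) and AGGTCA, the core of a Ror element without its flanking bases. The windows come from RefSeq (GRCm38.p6), 9 of the 10 genes matched with 10 windows, since Per1 has 2 start sites, and Per2 was not matched. The windows of Cry1, Arntl2 and Per1 are shown because the differences described below turn on these 3 genes. Each is given 5′ to 3′ on the strand of the gene, and capitals mark the E-box. Cry1 lies on the minus strand at chr10:85185005-85185304, Arntl2 on the plus strand at chr6:146805280-146805579, and the upstream start of Per1 on the plus strand at chr11:69098699-69098998.
Cry1: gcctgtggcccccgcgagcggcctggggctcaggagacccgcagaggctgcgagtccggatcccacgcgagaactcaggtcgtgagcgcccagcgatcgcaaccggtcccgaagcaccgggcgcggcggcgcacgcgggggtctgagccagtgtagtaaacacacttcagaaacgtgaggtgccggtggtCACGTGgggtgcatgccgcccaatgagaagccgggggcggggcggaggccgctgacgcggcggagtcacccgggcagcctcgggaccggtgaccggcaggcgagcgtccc
Arntl2: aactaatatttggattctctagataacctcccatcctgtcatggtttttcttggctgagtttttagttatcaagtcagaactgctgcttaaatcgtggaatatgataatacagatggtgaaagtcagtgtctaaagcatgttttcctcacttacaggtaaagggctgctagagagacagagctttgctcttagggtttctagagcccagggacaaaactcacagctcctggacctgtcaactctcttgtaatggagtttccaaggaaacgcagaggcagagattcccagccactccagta
Per1: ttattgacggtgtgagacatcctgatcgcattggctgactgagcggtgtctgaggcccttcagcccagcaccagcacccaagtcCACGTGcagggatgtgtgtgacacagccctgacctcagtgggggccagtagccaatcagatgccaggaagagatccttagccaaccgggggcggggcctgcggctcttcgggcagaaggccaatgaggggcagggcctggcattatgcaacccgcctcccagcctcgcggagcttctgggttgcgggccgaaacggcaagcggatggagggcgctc
Positions are counted from the start site, with negative ones upstream. An E-box began at -60 in Cry1 and at -166 in Per1, so 2 of 9 matched genes held one, and 7.15% of 32851 windows of all genes did. None of the 4 motifs was found in the Arntl2 window, in those of Cry2, Nr1d1 and Dbp, or in the downstream window of Per1. Per3 held 2 D-boxes (1.06% of all windows hold one), which began at -205 and -158. The core letters AGGTCA began at -137 in Per1 and at -77 in Nr1d2, and 16.3% of all windows hold them. Whether the flanking bases make these full Ror elements was not searched. Hlf held a cAMP response element that began at -9, found in 1.79% of all windows. No 2 motifs overlapped. A match describes letters in a window and not a bound site. Bases outside the windows and other forms of the motifs were not searched, so a window without a match does not show that the gene lacks such a site.

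Whether these transcripts can be read at all in the dissected samples was the first point. Array medians lay between 3.19 and 3.47, and GCRMA pulls dim probe sets towards a low common level, so values near or below that median carry little information on fold changes. The brightest probe sets of Cry2, Per1, Nr1d2, Dbp, Hlf and Arntl2 exceeded the array median in each of 35 mice. Nr1d2 averaged 8.93, Cry2 6.25, Per1 5.82, Hlf 5.77, Dbp 5.69 and Arntl2 3.80 over all mice, which are levels of different probe sets and give no order among the genes. Per2 exceeded the array median in 13 of 35 mice, Per3 in 12, Nr1d1 in 7 and Cry1 in 4. All 4 mice in which Cry1 exceeded the median were vehicle-treated SOD1 mice. In 21 of 35 mice Cry1 exceeded 2.40, the 20th centile of all values, and 1 of these was among the 7 WT mice of week 15. Further analyses used the filter of the study's methods, which asks that 4 arrays or more exceed the 20th centile and that the SD reach the 30th centile, and which 18 of the 21 probe sets passed. A dim probe set each of Nr1d2, Per2 and Per3 did not pass. Where a gene has several filtered probe sets, they are called bright and dim here or numbered by their mean over all mice. Since a probe set may pass through the group in which it is high, the 18 are not a neutral sample of the members.

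Facts on the whole set of arrays touch several of these values. Of 8 motoneuron markers, 6 lay over the array median in all mice, and Chat and Slc18a3, which make and load acetylcholine, did not. Of 7 astrocyte markers 6 did, of 5 measured oligodendrocyte markers 4, of 8 microglia markers 4 and of 5 endothelial markers 2. In WT mice of week 15 the mean level was 7.91 for motoneuron, 7.82 for astrocyte and 8.69 for oligodendrocyte markers. Microglia markers averaged 4.17 and endothelial markers 3.83 there. Which cells gave the signal of the members was not tested. In RNA of a fixed number of dissected cells, fewer cells of a type and less RNA per cell cannot be told apart. The 18S ribosomal RNA control probe sets read 12.1 ± 0.277 (SD, n = 7) in WT mice of week 15 and 9.62 ± 0.629 (n = 6) in WT mice of week 11. These did not overlap, so week, cohort and this control cannot be told apart. SOD1 mice read 10.4 ± 0.694 at week 11 (n = 8). At week 15 they read 11.6 ± 0.644 with vehicle and 11.7 ± 0.236 with G-CSF (n = 7 each). The SOD1 mean thus lay above that of WT mice at week 11 and below it at week 15, with overlapping ranges. Apart from the other arrays of their groups lay 3, from vehicle-treated mice 3 and 5 and from WT mouse 6 of week 11.

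Cry1, a cryptochrome and a repressor of the Clock and Arntl pair, was read at its highest in vehicle-treated SOD1 mice of week 15. Its only probe set had 2.58, 3.50 and 4.39 as the lowest, median and highest value in vehicle-treated SOD1 mice, against 2.13, 2.26 and 2.49 in WT mice of week 15. All 7 vehicle-treated mice thus lay above every WT mouse. The difference was 1.11 on the log2 scale (SE 0.24, 95% interval 0.62 to 1.59), a fold of 2.16 that starts from a WT level below the array median. The study lists this probe set for this comparison and the members were chosen with that known, so the values of all members at week 15 are a description without a p-value. The 7 vehicle-treated mice fell into 4 that read 3.50 or more and 3 that read 2.69 or less, the last near the highest WT mouse. The 2 groups also differed in microglia markers, whose mean level was 5.32 (4.41 to 5.75) in vehicle-treated mice and 4.17 (3.85 to 4.40) in WT mice, with 4 of 7 filtered markers called higher, and in the astrocyte markers, at 8.28 and 7.82 with 1 of 7 called higher. Over vehicle-treated mice 1 to 7 in turn, the microglia level was 4.41, 5.45, 5.39, 5.25, 5.68, 5.31 and 5.75, and Cry1 read 4.26, 2.59, 3.50, 2.69, 4.39, 3.65 and 2.58. The part of these cells in the Cry1 values was not tested. The difference lay between 0.94 and 1.24 when 1 mouse was left out, and it was 0.88 without the 3 arrays that stood apart.

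Arntl2 is represented by 2 probe sets, and in both the vehicle-treated mice were higher. For the dim probe set, which is the one the study lists, the lowest, median and highest values were 2.45, 4.21 and 4.97 in vehicle-treated SOD1 mice and 2.17, 2.96 and 3.30 in WT mice of week 15, and 5 of 7 vehicle-treated mice lay above every WT mouse. The difference was 1.08 (SE 0.32, 95% interval 0.42 to 1.73). For the bright probe set, the values were 3.88, 4.15 and 4.45 in vehicle-treated mice and 3.37, 3.60 and 3.85 in WT mice, so that the groups did not overlap, with a difference of 0.51 (SE 0.13). This is a fold of 1.43, under the 1.5 asked for. The difference of the dim probe set was no longer past the thresholds in a fit on the groups of this comparison alone or with 18S as a covariate (0.90). It was not past them either without vehicle-treated mouse 2 (0.91), vehicle-treated mouse 3 (1.01) or WT mouse 1 (0.96). The probe sets did not rank the mice alike, since their correlation over 35 mice after removal of group means was 0.02. High Cry1 and high Arntl2 were found together in some vehicle-treated mice and apart in others. Vehicle-treated mice 2, 4 and 7 read 2.58 to 2.69 for Cry1 and 4.02 to 4.97 for the dim Arntl2 probe set, mice 5 and 6 read 4.39 and 3.65 for Cry1 and 2.92 and 2.45 for Arntl2, and mice 1 and 3 were high in both.

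**Figure D1:**
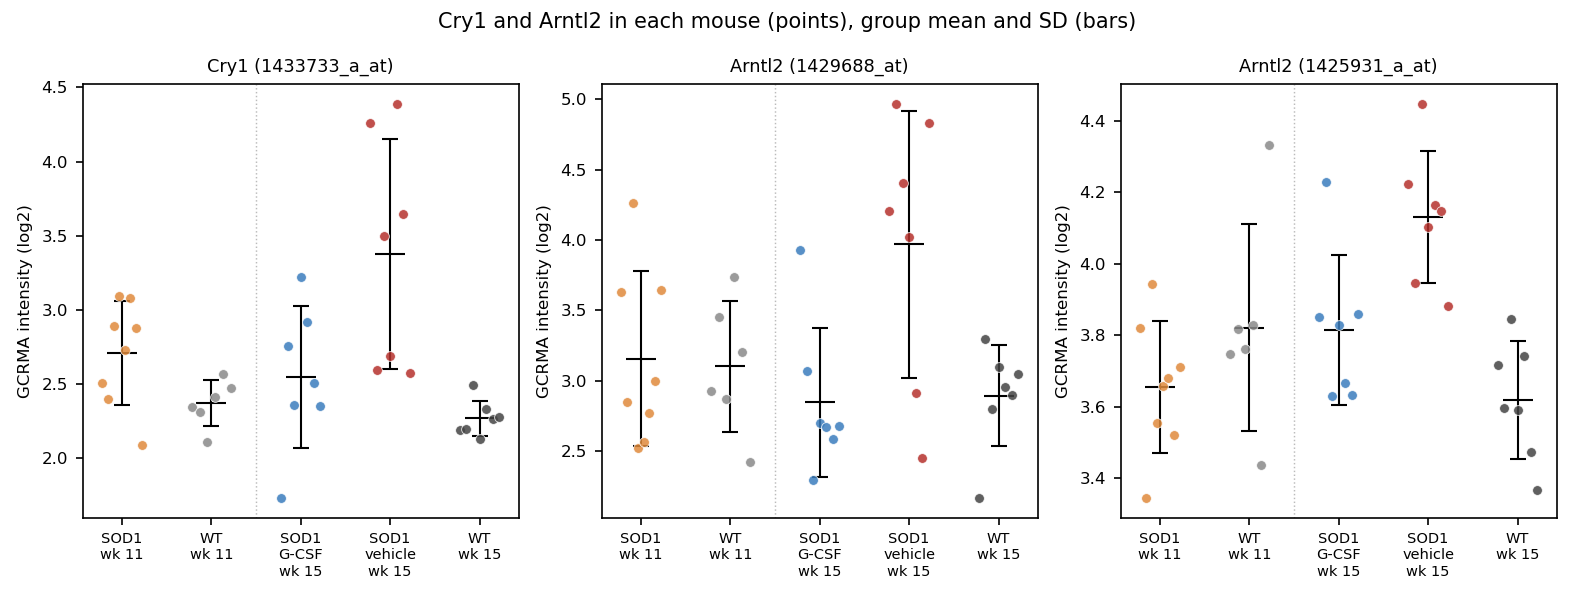
Log2 GCRMA intensity of Cry1, of the dim (middle) and of the bright (right) Arntl2 probe set in each of the 35 mice, by group, with group mean and SD as bars. For Cry1 and the bright Arntl2 probe set the 7 vehicle-treated SOD1 mice lie above all 7 WT mice of week 15, and for the dim Arntl2 probe set 5 of 7 do.

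The levels of Cry1 in all 5 groups ran, from the highest to the lowest mean, from vehicle-treated SOD1 mice of week 15 (3.38 ± 0.78, SD) over SOD1 mice of week 11 (2.71 ± 0.35), G-CSF-treated SOD1 mice (2.55 ± 0.48) and WT mice of week 11 (2.37 ± 0.16) to WT mice of week 15 (2.27 ± 0.12). Each neighbour in this order overlapped the next in its range. For the dim Arntl2 probe set the order was vehicle-treated mice (3.97 ± 0.95), SOD1 mice of week 11 (3.16 ± 0.62), their WT controls (3.10 ± 0.47), WT mice of week 15 (2.89 ± 0.36) and G-CSF-treated mice (2.85 ± 0.53). The last 4 means lay within 1 SD of each other.

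Of the 18 filtered probe sets, 2 passed the thresholds for vehicle-treated SOD1 against WT at week 15, and both were higher. Of all 31352 filtered probe sets, called transcripts here, 5.91% passed. The thresholds were an unadjusted p under 0.05, an adjusted p under 0.1 and a fold of at least 1.5. As the comparison entered the choice of the members, nothing is read from this count. The difference was positive in 16 of the 18, all but Nr1d2 and Per1. The median of the 18 was 0.28, beside 0.02 over all transcripts, and nothing is read from these signs either. Nr1d2, a repressor of Arntl, read 6.07, 8.43 and 8.98 in vehicle-treated mice and 8.29, 9.12 and 9.76 in WT mice of week 15, a difference of -0.91 (SE 0.33) with overlapping groups. The lowest value was that of vehicle-treated mouse 6, and without it the difference was -0.57. The difference was -1.16 without the 3 arrays that stood apart and -1.08 with 18S as a covariate. Per1 differed by -0.06 (SE 0.23).

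In the other period and cryptochrome genes the groups overlapped. Per2 and Per3 encode partners of the cryptochromes in the repressor complex. The bright Per2 probe set read 2.84, 3.44 and 7.15 in vehicle-treated SOD1 mice and 2.96, 3.19 and 4.20 in WT mice, and its difference of 0.75 (SE 0.36) became 0.23 without vehicle-treated mouse 6. For Per3, the brightest probe set read 3.00, 3.18 and 6.69 in vehicle-treated mice and 2.52, 3.61 and 3.78 in WT mice, and its difference of 0.43 became -0.05 without the same mouse. Mouse 6 was thus the highest of all 35 in both genes and the lowest of all in Nr1d2, while the dim Per2 probe set read 2.43 in that mouse and the second Per3 probe set 3.48. This second Per3 probe set had a difference of 0.66 (SE 0.24), which was 0.97 without the 3 arrays that stood apart. Cry2, the second cryptochrome, read 5.07, 6.03 and 6.50 in vehicle-treated mice and 4.94, 5.89 and 7.19 in WT mice, a difference of 0.02 (SE 0.31, 95% interval -0.62 to 0.65). Nr1d1 differed by 0.02 (SE 0.14).

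The D-box factors had wide spreads. Dbp, in its bright probe set, read 5.41, 6.15 and 8.01 in vehicle-treated SOD1 mice and 4.98, 5.63 and 7.00 in WT mice of week 15, a difference of 0.72 (SE 0.43, 95% interval -0.15 to 1.59). Its SD within groups, 0.83, was higher than that of 89.5% of filtered transcripts. The bright Hlf probe set read 5.14, 5.94 and 7.17 in vehicle-treated mice and 4.72, 5.50 and 6.15 in WT mice, a difference of 0.45 (SE 0.29). In both genes the groups overlapped.

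**Figure D2:**
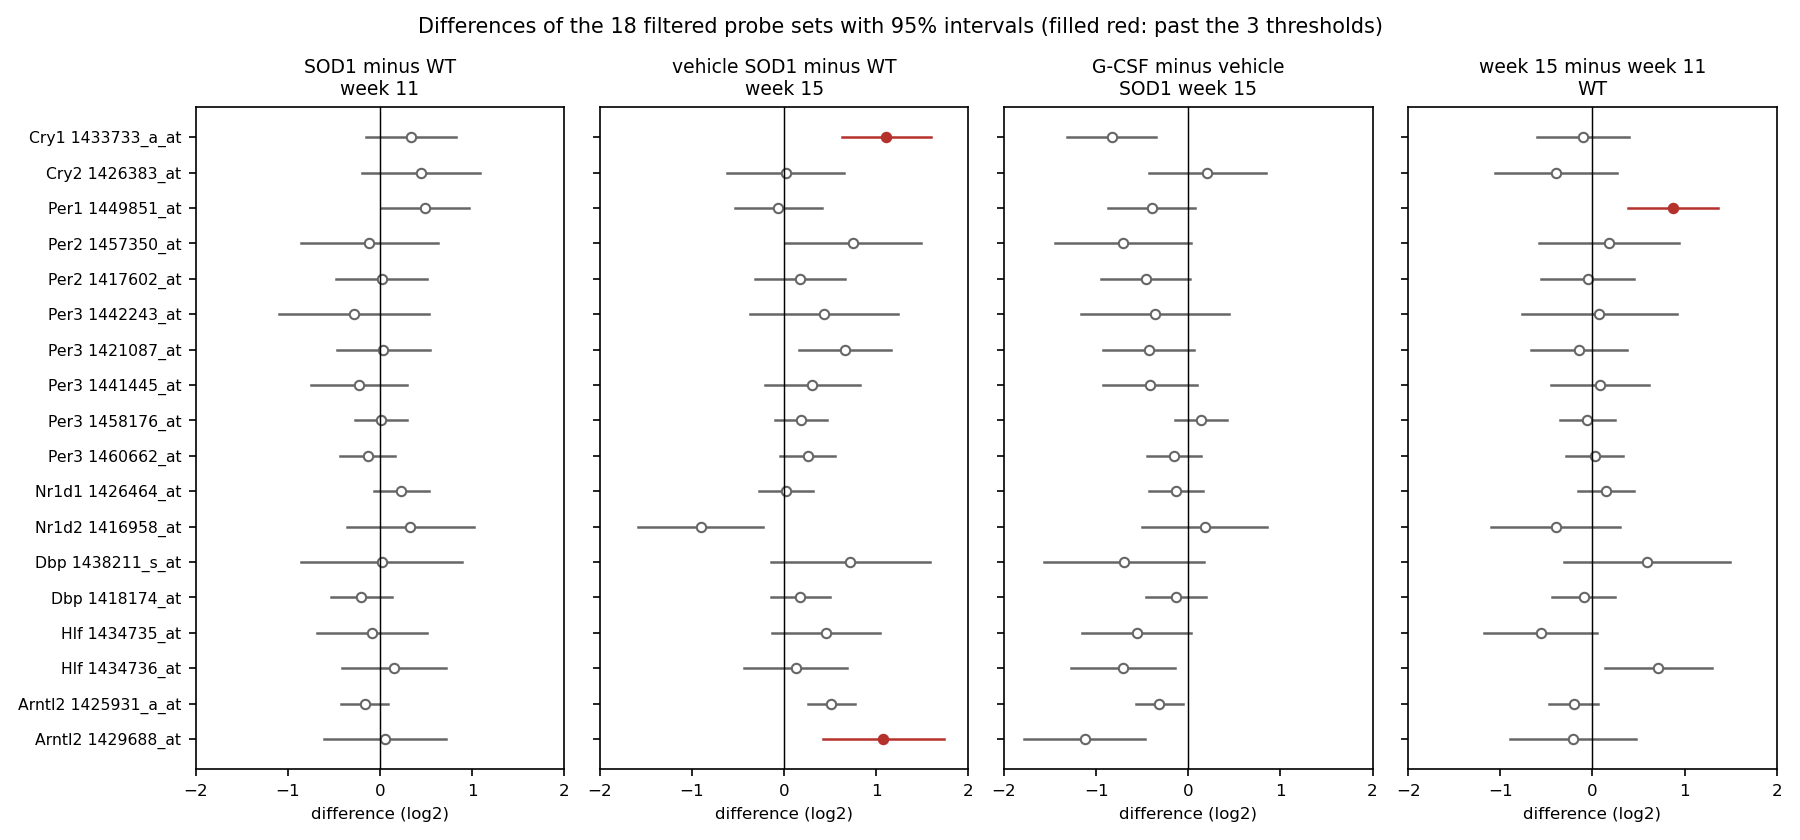
Difference in log2 intensity of the 18 filtered probe sets for 4 comparisons, with 95% intervals from limma, probe sets of a gene from bright to dim, and those past the thresholds in red. Cry1 and the dim Arntl2 probe set stand at 1.11 and 1.08 for vehicle-treated SOD1 against WT at week 15, and Per1 at 0.88 for week 15 against week 11 in WT mice.

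The question of the G-CSF groups was which of these transcripts differed with treatment. This comparison shares the vehicle-treated mice with the one above, and the study lists members in it too, so its values are again a description. Cry1 had 1.73, 2.51 and 3.22 as the lowest, median and highest value in G-CSF-treated SOD1 mice, against 2.58, 3.50 and 4.39 in vehicle-treated SOD1 mice. Of 7 G-CSF-treated mice, 4 lay below every vehicle-treated mouse, and the difference was -0.83 (SE 0.24). The dim Arntl2 probe set had 2.29, 2.68 and 3.93 in G-CSF-treated mice and 2.45, 4.21 and 4.97 in vehicle-treated mice, a difference of -1.13 (SE 0.32) with 1 of 7 below every vehicle-treated mouse. For the bright Arntl2 probe set the values were 3.63, 3.83 and 4.23 in G-CSF-treated mice and 3.88, 4.15 and 4.45 in vehicle-treated mice, with 6 of 7 G-CSF-treated mice below every vehicle-treated mouse and a difference of -0.32 (SE 0.13).

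None of the 18 probe sets passed the thresholds for G-CSF against vehicle in limma, where 12 of 31352 transcripts (0.0383%) did. An unadjusted p under 0.05 was reached by 4 of the 18 and by 8.3% of all transcripts, and Tukey's comparison called 2 of the 18, Cry1 and the dim Arntl2 probe set, and 1.13% of all transcripts. As with the comparison above, nothing is read from these counts. The difference was negative in 15 of 18, with a median of -0.41 beside -0.001 over all transcripts. Nothing is read from these signs either, as the same vehicle-treated mice enter both comparisons and 5 of the 18 probe sets are of Per3. The bright Per2 probe set differed by -0.71, and by -0.19 without vehicle-treated mouse 6. The dim Hlf probe set read 2.72, 3.23 and 4.10 in G-CSF-treated mice and 3.27, 4.12 and 5.47 in vehicle-treated mice, a difference of -0.71 (SE 0.28). Nr1d2 read 6.94, 8.57 and 8.93 in G-CSF-treated mice and 6.07, 8.43 and 8.98 in vehicle-treated mice, a difference of 0.18 (SE 0.33), and Cry2 differed by 0.21 (SE 0.31). The microglia markers averaged 5.20 (4.25 to 6.59) in G-CSF-treated and 5.32 (4.41 to 5.75) in vehicle-treated mice. The astrocyte markers averaged 8.00 (7.51 to 8.40) in G-CSF-treated and 8.28 (7.75 to 8.74) in vehicle-treated mice. The ranges overlapped, and the part of these cells in the differences was not tested.

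At week 11, before motor signs, no member differed between SOD1 and WT mice past the thresholds. Of 18 probe sets, 0 passed in limma and 0 in Tukey's comparison, where limma called 1.32% of all transcripts and Tukey's comparison 2.21%. An unadjusted p under 0.05 was found for 1 of 18, under the 11.0% of all transcripts. That probe set was Per1, which read 5.37, 5.83 and 6.34 in SOD1 mice and 4.63, 5.32 and 5.66 in WT mice of week 11, which is a difference of 0.49 (SE 0.23, limma, adjusted p = 0.434). Of 8 SOD1 mice, 5 lay above every WT mouse. Cry1 read 2.09, 2.81 and 3.09 in SOD1 mice and 2.11, 2.38 and 2.57 in WT mice, a difference of 0.34 (SE 0.24, adjusted p = 0.675), and 5 of 8 SOD1 mice exceeded all WT mice while 1 lay below them. Cry2 read 6.34, 6.79 and 7.34 in SOD1 mice and 5.17, 6.58 and 6.65 in WT mice, a difference of 0.45 (SE 0.32, adjusted p = 0.669). For Arntl2 the differences were 0.05 in the dim probe set (SE 0.33, adjusted p = 0.98) and -0.17 in the bright one (SE 0.13, adjusted p = 0.708). Nr1d2 differed by 0.33 (95% interval -0.35 to 1.02), Dbp by 0.02 (-0.86 to 0.90) and the bright Hlf probe set by -0.08 (-0.68 to 0.51).

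The SOD1 differences of the weeks were set against each other in the same fit, without the G-CSF group as a term of the contrast. For Cry1 the week 15 difference exceeded that of week 11 by 0.77 (SE 0.34) and for the dim Arntl2 probe set by 1.02 (SE 0.46), neither past the thresholds. Of 18 probe sets, 1 passed, the bright Arntl2 probe set with 0.68 (SE 0.18), where 2.93% of all transcripts did, and because the members were chosen with the week 15 values known, nothing is read from this. It did not pass without the 3 arrays that stood apart (0.51), with 18S as a covariate (0.55), without SOD1 mouse 2 of week 11 (0.63) or without WT mouse 6 of week 11 (0.58). Nr1d2 had the largest size, -1.24 (SE 0.47). SOD1 mice of week 15 carried pumps and those of week 11 did not, which cannot be told apart from age here.

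Between the weeks in WT mice, Per1, which encodes a period protein, was higher at week 15. It read 5.89, 6.03 and 6.76 in WT mice of week 15 and 4.63, 5.32 and 5.66 in WT mice of week 11, so that all 7 older mice lay above all 6 younger ones. The difference was 0.88 (SE 0.24, adjusted p = 0.0303 from limma), a fold of 1.84. It passed the thresholds in all 35 fits that left out 1 mouse (0.74 to 0.95). With 18S as a covariate the difference was 0.85 but its adjusted p was 0.478, and age, cohort and 18S level cannot be told apart. The mean of Per1 in WT mice of week 11, 5.29, was the lowest of the 5 groups. SOD1 mice averaged 5.78 at week 11 and, at week 15, 5.70 with G-CSF and 6.10 with vehicle. The same WT mice of week 11 were the controls of the SOD1 comparison at that week. Per1 was the only 1 of 18 probe sets called, where 5.56% of all transcripts were. The dim Hlf probe set read 3.62, 3.83 and 4.57 in WT mice of week 15 and 3.07, 3.34 and 3.41 in WT mice of week 11, without overlap (0.71, SE 0.29, adjusted p = 0.17). In the fit on the 2 WT groups alone its adjusted p was 0.028. The bright Hlf probe set differed by -0.56 (SE 0.30, adjusted p = 0.346). Nr1d2 read 8.29, 9.12 and 9.76 at week 15 and 9.18, 9.42 and 9.71 at week 11, a difference of -0.40 (SE 0.35, adjusted p = 0.617), and Dbp differed by 0.60 (SE 0.44, adjusted p = 0.537). Cry1 differed by -0.10 (95% interval -0.60 to 0.40).

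**Figure D3:**
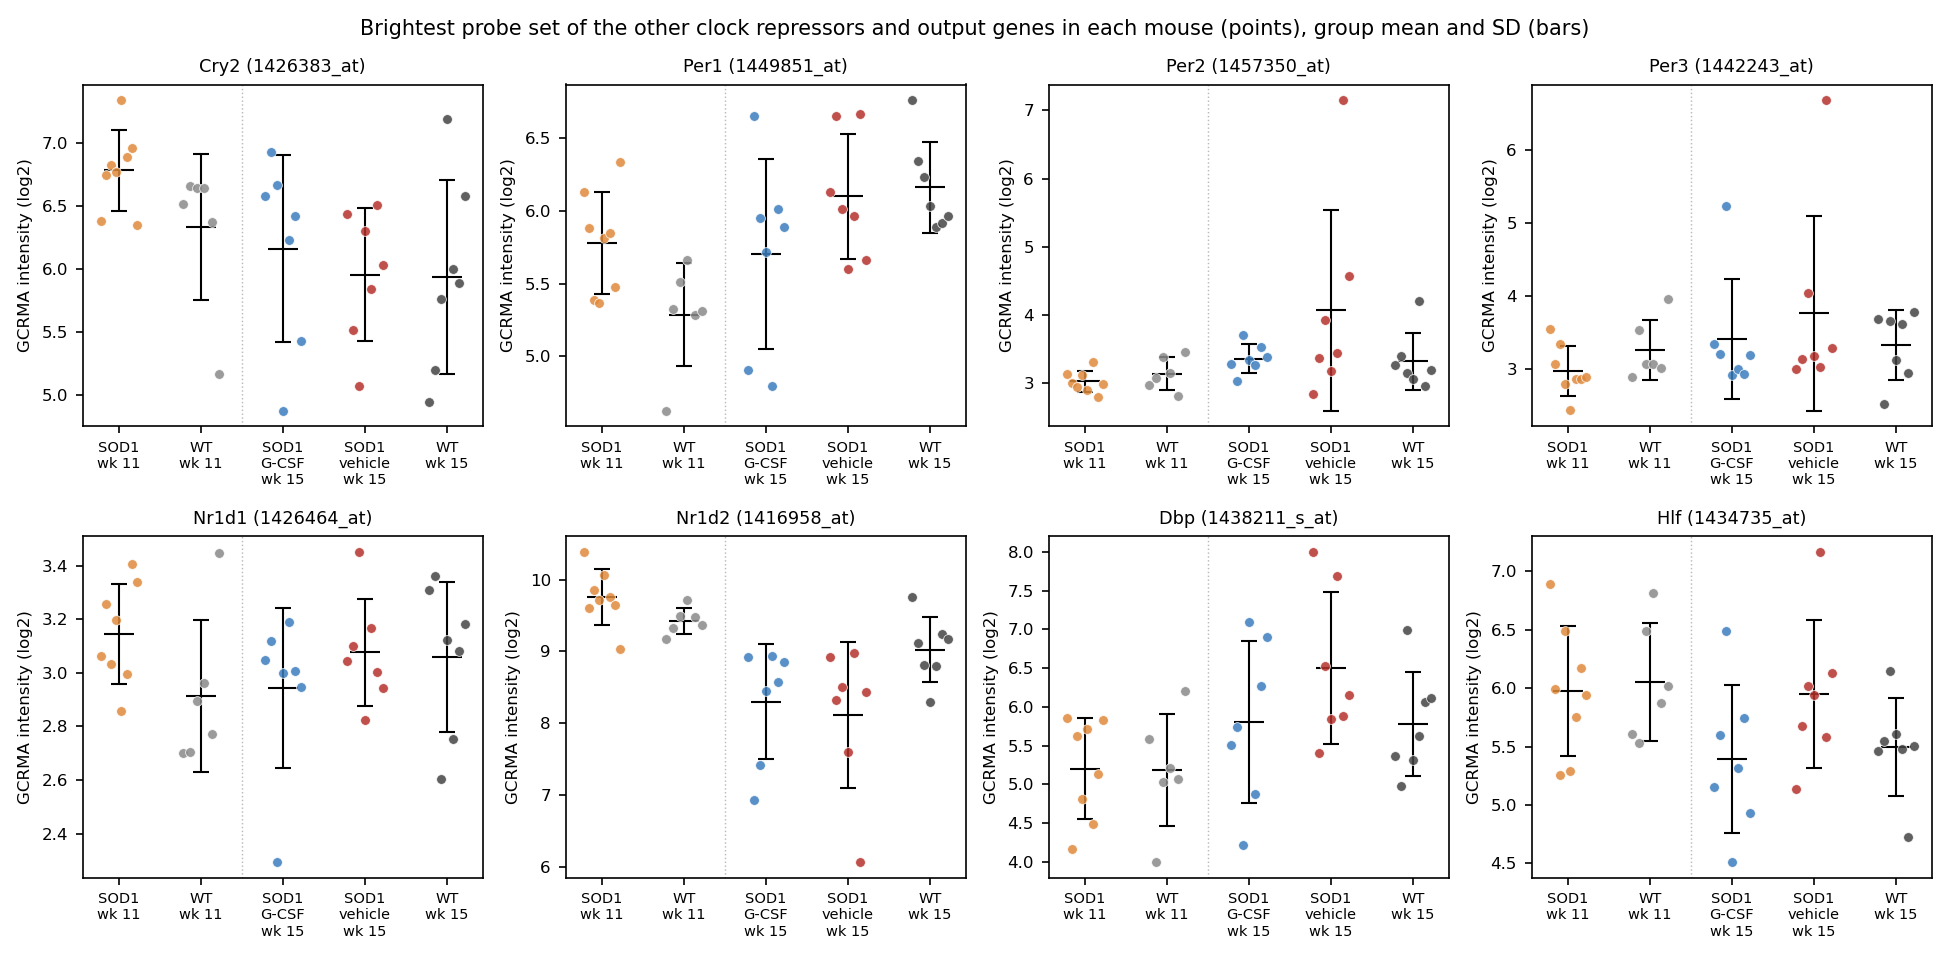
Log2 GCRMA intensity of the brightest probe set of the other 8 genes in each of the 35 mice, by group, with group mean and SD as bars. Per1 separates the WT groups, with 5.89 to 6.76 at week 15 and 4.63 to 5.66 at week 11, and vehicle-treated mouse 6 stands alone in Per2 (7.15), Per3 (6.69) and Nr1d2 (6.07).

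Genes that share the loop with the members were counted on a list of 24, of which 22 were measured by 67 probe sets, 58 of them filtered. The activators were not called at week 15 in their bright probe sets. Arntl averaged 5.36 ± 0.86 (SD) in vehicle-treated SOD1 mice and 5.29 ± 0.66 in WT mice, a difference of 0.07 (SE 0.37, adjusted p = 0.942), and the brightest Clock probe set differed by -0.29 (SE 0.29, adjusted p = 0.614). The dimmest Clock probe set was called higher (0.99, SE 0.34, adjusted p = 0.0949) and kept the call in 15 of 35 fits that left out 1 mouse. The other called gene was Wee1, a kinase that holds back entry into mitosis and a known E-box output in mouse liver. It read 5.02, 5.79 and 6.67 in vehicle-treated mice and 6.54, 6.93 and 7.05 in WT mice of week 15, a difference of -1.06 (SE 0.29, adjusted p = 0.0296), and without the 3 arrays that stood apart the difference was -0.76 (adjusted p = 0.116). Of the 58 probe sets, 1 was thus called higher and 1 lower, where 5.91% of all transcripts were called. The median difference of the 58 was -0.06.

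In the other comparisons these genes gave few calls in limma. At week 11 none of 58 was called, where 1.32% of all transcripts were. An unadjusted p under 0.05 was found for 5 (11.0% of all transcripts). The largest of these was Csnk1e, a kinase of period proteins, at 1.13 (limma, adjusted p = 0.16). Tukey's comparison called it, along with 2.21% of all transcripts. For G-CSF against vehicle none was called in limma (0.0383% of all transcripts) or in Tukey's comparison (1.13%). There 5 had an unadjusted p under 0.05 (8.3% of all transcripts). For the difference between weeks none was called in limma (2.93% of all transcripts), with 5 at that level (18.1%). Between WT mice of week 15 and of week 11, 2 of 58 were called, where 5.56% of all transcripts were. A probe set of Gsk3b, a kinase that acts on several clock proteins, was higher by 1.02 (SE 0.24, adjusted p = 0.00901), and a probe set of Rora, an activator of Arntl, by 1.23 (SE 0.41, adjusted p = 0.0844). With 18S as a covariate the sign turned in both, to -0.11 for Gsk3b and -0.32 for Rora. Without WT mouse 6 of week 11 Rora stood at 0.72. Another Rora probe set had -1.42 (adjusted p = 0.233).

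Whether mice with more of 1 member also had more of another was described by correlations of the brightest probe sets over 35 mice after the group mean was taken off, which removes genotype, week and treatment but not what the mice of an array run share. Over 45 pairs of genes the median r was 0.02, with a range from -0.58 to 0.76, and 23 were positive. The 3 pairs over 0.5 in size were Per2 with Per3 (0.76), Per3 with Nr1d2 (-0.58) and Per2 with Nr1d2 (-0.54). Without vehicle-treated mouse 6 they were 0.35, -0.21 and 0.00. Cry1 and Dbp had 0.43 and, without that mouse, 0.46. Dbp and Hlf, both D-box factors, had -0.12, and Nr1d1 and Nr1d2 had 0.23. Probe sets of the same gene ranged widely in their correlation. Those of Dbp had 0.64, and values were 0.18 for Hlf, 0.13 for Nr1d2, -0.08 to 0.17 for Per2 and -0.34 to 0.54 for Per3. With Arntl, members ranged from -0.20 (Per3) to 0.39 (Cry1).

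**Figure D4:**
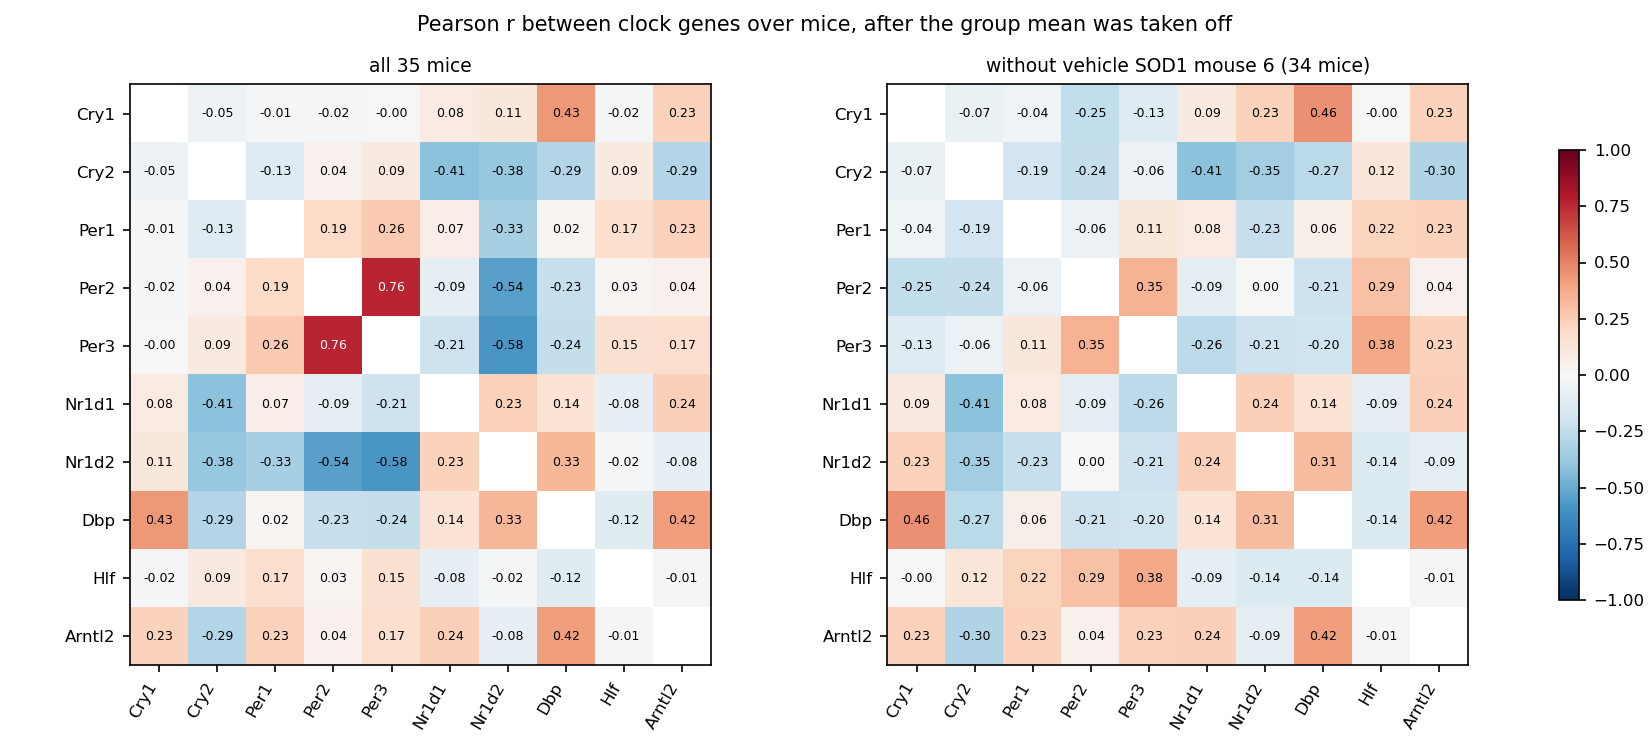
Pearson r between the brightest probe sets of the 10 genes over mice after removal of group means, for all 35 mice (left) and for 34 mice without vehicle-treated mouse 6 (right). Per2 and Per3 stand out on the left at 0.76 and read 0.35 on the right, while Cry1 with Dbp reads 0.43 and 0.46.

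The transcripts whose pattern over the 35 mice was most like that of 3 members, by the same measure, came from outside the clock list. For Cry1 these were Mb (0.71), Bcl2 (0.71), Scn9a (0.69), Crbn (0.68) and Gcnt2 (0.67), and the 5th and 95th centiles over 31351 transcripts were -0.33 and 0.33. For the dim Arntl2 probe set they were Yeats2 (0.74), Dcp2 (0.72), Ecpas (0.71), Pm20d1 (0.70) and Abcd2 (0.69). For Dbp they were Paxip1 (0.66), Lman1 (0.65), Cox6a2, Dpysl3 and Nsun5 (0.64 each). They were ranked among the 25589 filtered probe sets that name 1 gene, 1 per gene, and describe these mice. Probe sets of the member itself were left out, and the dim Dbp probe set had 0.64 with the bright one.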

How the data were processed

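Motoneuron RNA of 35 mice was amplified and hybridized by the authors to Affymetrix mouse arrays, 1 per mouse. The authors normalized the arrays by GCRMA in the Expression Console software of Affymetrix, whose version was not given in the sources used here, and deposited log2 intensities, 1 per probe set and array. Such values hold no read depth, so the number of arrays limits the precision. Groups follow the labels, and replicates are separate mice. Probe sets were named through the platform annotation and updated gene numbers: 34958 of 45101 name 1 gene, 932 several and 9211 none.

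After the filter described by the authors, 31352 probe sets were left. limma (3.58.1, R 4.3.3) was fitted over all 5 groups with 1 mean each, and p-values were adjusted by Benjamini-Hochberg over all kept probe sets. The methods name ANOVA with Tukey's comparison, which was run as an alternative. The step was tested on simulated data with known changes. Members and gene lists were chosen with earlier results of these data known. In the comparisons at week 15 and in the difference between weeks, no p-value of a member is therefore printed, and counts of members called are given beside those of all probe sets as a description. All probe sets of the members were named, values per mouse were given for the brightest and for those the study lists, and other clock genes were named where called or as activators. Alternatives were no filter, quantile normalization, fits on the compared groups only, a replicate block, no arrays that stood apart, 18S as a covariate, a floor at the 20th centile and leaving out each mouse. The correlations without vehicle-treated mouse 6 and the alternatives for other clock genes were added after seeing the data. Python 3.11.15, pandas 2.3.3 and matplotlib 3.10.9 made tables and figures.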

Additional observations from a re-analysis of the deposited data

Results flagged for a closer look

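Single mice lay far from the rest of their group in 9 of 105 combinations of member probe set and group. The measure was the gap to the nearest mouse relative to the range of the group, with a nominal rate of about 1 in 20. The share over all transcripts was not computed, so nothing is read from the count. Vehicle-treated SOD1 mouse 6 of week 15 read 7.15 for the bright Per2 probe set and 6.69 for the brightest Per3 probe set, far above its group. WT mouse 6 of week 11 read 5.17 for Cry2, low in its group, and 3.45 for Nr1d1, high in its group, and its array stood apart as a whole. G-CSF-treated mouse 3 read 5.24 for the brightest Per3 probe set, high, and 2.29 for Nr1d1, low. WT mouse 1 of week 11 was low in Per1 at 4.63, WT mouse 5 of week 15 high in the bright Per2 probe set at 4.20, and G-CSF-treated mouse 2 high in the bright Arntl2 probe set at 4.23.

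The SOD1 difference of the bright Arntl2 probe set at week 15 exceeded that at week 11 by 0.68 on the log2 scale in the test of the difference itself, in a comparison that entered the choice of the members.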

How the results depend on the processing

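The difference of Cry1 for vehicle-treated SOD1 against WT at week 15, which entered the choice of the members and is a description, lay between 0.88 and 1.13 under 8 other settings. The counts of members called depended on the setting. For vehicle-treated SOD1 against WT, 1 member was called when only the compared groups were fitted and 4 without the 3 arrays that stood apart, and between 1 (without vehicle-treated mouse 2) and 4 (without vehicle-treated mouse 5) when 1 mouse was left out. For G-CSF against vehicle, Tukey's comparison called 2. For WT of week 15 against week 11, 2 members were called when only the compared groups were fitted and 0 with 18S as a covariate. For the difference between the weeks, 0 were called without the 3 arrays or with 18S as a covariate, and 0 to 1 without 1 mouse. The cause was not tested.

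Over all transcripts, the 413 called for SOD1 against WT at week 11 became 694 with Tukey's comparison, 216 after quantile normalization and 168 with 18S, and 147 (without WT mouse 5) to 563 (without WT mouse 4) without 1 mouse. At week 15, 1854 became 1174 with the compared groups only. For G-CSF against vehicle, 12 became 353 with Tukey's comparison, 6 without a filter, 0 with the compared groups only (limma), 52 without the 3 arrays, and 4 to 48 without 1 mouse. For WT of week 15 against week 11, 1743 became 387 with 18S. For the difference between the weeks, 919 became 328 after quantile normalization, 202 without the 3 arrays, 6 with 18S, and 183 (without WT mouse 6 of week 11) to 1285 without 1 mouse. Quantile normalization raised the share called higher at week 15 to 41.1%, against 29.0% with the deposited values, and that of the difference between the weeks to 42.7%, against 26.6%. For the WT weeks that share was 46.9% without the 3 arrays and 43.7% with 18S, against 59.3%.

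Several small differences that passed no threshold changed sign. For SOD1 against WT at week 11 these were the bright Dbp probe set after quantile normalization (-0.08), the fourth Per3 (-0.039) and dim Arntl2 (-0.083) probe sets without the 3 arrays, and the second Per3 (-0.028), the fifth Per3 (0.013) and bright Hlf (0.070) probe sets with 18S. For WT of week 15 against week 11 these were dim Dbp without the 3 arrays (0.087) and, with 18S, bright Per2 (-0.43), the brightest (-0.028), the third (-0.17) and the fourth (0.19) Per3 probe sets, Nr1d2 (0.38), dim Dbp (0.18), bright Arntl2 (0.033) and dim Arntl2 (0.59). Leaving out 1 mouse at week 11 gave ranges of -0.13 to 0.13 for dim Per2, -0.072 to 0.14 for the second Per3 probe set, -0.039 to 0.058 for the fourth, -0.22 to 0.22 for bright Dbp, -0.21 to 0.070 for bright Hlf and -0.10 to 0.18 for dim Arntl2. Between the weeks in WT it gave -0.16 to 0.065 for dim Per2, -0.089 to 0.17 for the third Per3 probe set, -0.0089 to 0.073 for the fifth and -0.19 to 0.087 for dim Dbp.

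The replicate numbers name different mice in each group. Deviations of same-numbered mice from their group means correlated between -0.21 and 0.14, and over 0.1 in 1 of 66 pairs. Mice of different numbers were not set beside them, so these values do not settle whether the numbers pair mice. A fit with the replicate block called 155 transcripts for SOD1 against WT at week 11 and turned the sign of dim Per2 (-0.15), the second Per3 probe set (-0.014), bright Dbp (-0.12) and dim Arntl2 (-0.048) there. It moved no count of members called.

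The dim level of Cry1, Per2, Per3, Nr1d1 and the second Arntl2 probe set limits how far their fold changes can be sized.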
